A study of Hydra vulgaris with 113 samples.

Results

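The tips of Hydra that were regenerating a foot were compared with and without iCRT14, a small molecule that blocks the interaction of β-catenin with TCF, at 12 h after amputation. The comparison used 16 of the 113 samples of the series, chosen by side, time and treatment from the sample titles: 3 treated and 3 untreated RNA-seq libraries, and 5 treated and 5 untreated ATAC-seq libraries. Polyps were Hydra vulgaris of strain 105, cut in the middle of the body column, and each RNA library came from 30 pooled tips and each ATAC library from 15. Treated polyps were held in 5 µM iCRT14 for 2 h before the cut and then until collection, 14 h in all. The labels describe the control tips as untreated and name no solvent. Head-regenerating tips at 12 h, treated and untreated, and foot tips at 0, 3 and 8 h were used to place the 12 h foot effect. Untreated head tips at 8 h, set against untreated foot tips, gave the lists of features that differed between the sides. The remaining libraries of the series entered the fits. The RNA libraries of the 12 h foot held 13.5M to 22.2M estimated counts and the ATAC libraries 8.22M to 14.4M counts in peaks. The tips are pools of many cell types, so that fewer cells of a type and less RNA or accessibility per cell cannot be told apart. The gene models carry no names, and the tissue could not be checked against named markers.

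In canonical Wnt signalling, stabilised β-catenin joins TCF/LEF proteins on DNA and turns on target genes, and in Hydra this pathway is known for setting up the head organizer. Injury is known to switch on stress and growth pathways that act through bZIP factors of the Jun, Fos, ATF and CREB families and through the Egr zinc fingers. Smad proteins carry signals of TGF-β, activin and BMP ligands to the nucleus. RNA-seq measured the transcripts of gene models, and ATAC-seq measured accessible chromatin as counts in peaks. The deposited deviation score gives, for 1 motif and 1 library, how accessible the peaks with that motif were relative to the other libraries. Motif names come from vertebrate factors and stand for DNA patterns, and related factors share patterns, so that motifs of a family overlap in the peaks they match and are not independent of each other.

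The inhibitor changed all 3 readouts of the 12 h foot, with the largest motif shifts in the bZIP motifs, which rose, and in the Smad motifs, which fell. Of 332 motifs, 117 (35.2%) passed an adjusted p of 0.05 in limma's test, 67 of them higher in iCRT14 (20.2%) and 50 lower (15.1%). With scores centred within each library 130 passed, 62 higher and 68 lower, so that which direction held more motifs depended on the centring. The 5 treated and 5 untreated libraries did not overlap for 81 of the 117, beside 87 of all 332 motifs (26.2%). Of 108934 peaks tested, 4659 (4.28%) were called by edgeR's quasi-likelihood test, 2418 more accessible (2.22%) and 2241 less accessible (2.06%). Of 19989 gene models tested, 2399 (12.0%) were called by the same test, 1294 higher (6.47%) and 1105 lower (5.53%). The count of gene models was 1515 without iCRT14 replicate 2, 1532 without iCRT14 replicate 3, and 4148 when the RNA libraries of another kit entered the fit. Groups did not overlap for 5788 (29%) of the gene models tested and for 5662 (5.2%) of the peaks.

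Motifs of the CRE type, the pattern bound by ATF and CREB proteins, rose the most. All 6 rose, with a median difference of 4.33 score units against 0.10 over all motifs. For CRE(bZIP), the untreated libraries scored -5.59, -4.29, -5.54, -4.88 and -5.20, and the treated libraries 0.93, -1.17, 4.24, 0.35 and 2.43. The groups were far apart, and the treated libraries spread more widely (SD 2.06 against 0.53, n = 5 each). The difference was 6.46 ± 1.18 (SE; limma, adjusted p = 1.37e-05). For Atf1(bZIP), the means were -5.24 ± 0.53 untreated and 0.78 ± 1.91 treated (SD, n = 5 each), a difference of 6.03 (limma, adjusted p = 0.00079). JunD(bZIP), Atf7(bZIP) and c-Jun-CRE(bZIP) rose by 4.57, 4.08 and 3.96 units, and Atf2(bZIP), the sixth, rose least.

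Motifs grouped as AP-1 type rose in 13 of 14 cases, with a median difference of 2.55. The group holds the patterns of Jun and Fos dimers and also motifs named for Atf3, BATF, Bach, Maf, NF-E2 and Nrf2. For AP-1(bZIP) the untreated libraries scored -2.08, -3.13, -1.41, -1.48 and -0.39, and the treated libraries 3.37, 3.53, 4.05, 3.97 and 4.41. All treated libraries lay above 0 and all untreated libraries below it. The difference was 5.56 ± 0.60 (SE; limma, adjusted p = 4.47e-11). Fra2(bZIP), named for a Fos relative, rose by 5.65 and Jun-AP1(bZIP) by 4.92. MafF(bZIP) was the member that did not pass, with a difference of 0.16 (limma, adjusted p = 0.69). Of 5 motifs of the CEBP type, 3 rose, led by Chop(bZIP), a stress-related factor of that group, at 3.88. The share that rose over all motifs was 20.2%.

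Zinc finger motifs of the KLF, Sp and Egr group were mixed: 5 of 10 rose and 1 fell. Egr2(Zf), named for an immediate early factor, rose from -1.08 ± 1.55 to 3.92 ± 1.61 (SD, n = 5 each), a difference of 5.00 (limma, adjusted p = 3.98e-10). KLF5(Zf) was the member that fell, by 1.09. Of 34 bHLH motifs, 13 rose and 3 fell. Over all motifs 20.2% rose and 15.1% fell. Centring the scores within each library moved the median over all motifs from 0.10 to -0.10 and changed no count of the bZIP, KLF, Sp and Egr or Smad motifs.

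All 4 Smad motifs fell, with a median difference of -3.03. For Smad4(MAD), the shared partner of the signalled Smads, the untreated libraries scored -0.41, 0.10, 1.51, 0.56 and 1.11, and the treated libraries -4.79, -4.42, -3.64, -4.34 and -4.04. The difference was -4.82 ± 0.49 (SE; limma, adjusted p = 1.34e-11). The treated libraries sat in a narrow band far below every untreated one. For Smad2(MAD), which is activated by activin and TGF-β receptors, the means were -0.18 ± 0.38 untreated and -4.06 ± 0.23 treated (SD, n = 5 each), a difference of -3.88 (limma, adjusted p = 9.07e-10). Smad3(MAD) fell by 2.19 and the composite motif Tbox:Smad(T-box,MAD) by 2.08.

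The largest falls after the Smad motifs, among motifs without overlap of the groups, were Unknown-ESC-element(?) by 2.67, GATA3(Zf),DR4 by 2.42, Phox2a(Homeobox) by 2.26, RBPJ:Ebox(?,bHLH) by 2.13, p53(p53) [mES] by 2.13 and Pax7(Paired,Homeobox),long by 2.10. By family, 5 of 10 Forkhead motifs fell and none rose, 3 of 10 GATA motifs fell and none rose, and 2 of 3 TEA motifs, which stand for TEAD factors of the Hippo pathway, fell, beside 15.1% of all motifs that fell and 20.2% that rose. With centred scores 6 Forkhead, 3 GATA and 3 TEA motifs fell. Of 7 Sox motifs, 3 fell and 1 rose. The treated and untreated libraries overlapped for FOXM1(Forkhead), which had the largest difference of its family at -3.13.

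**Figure D1:**
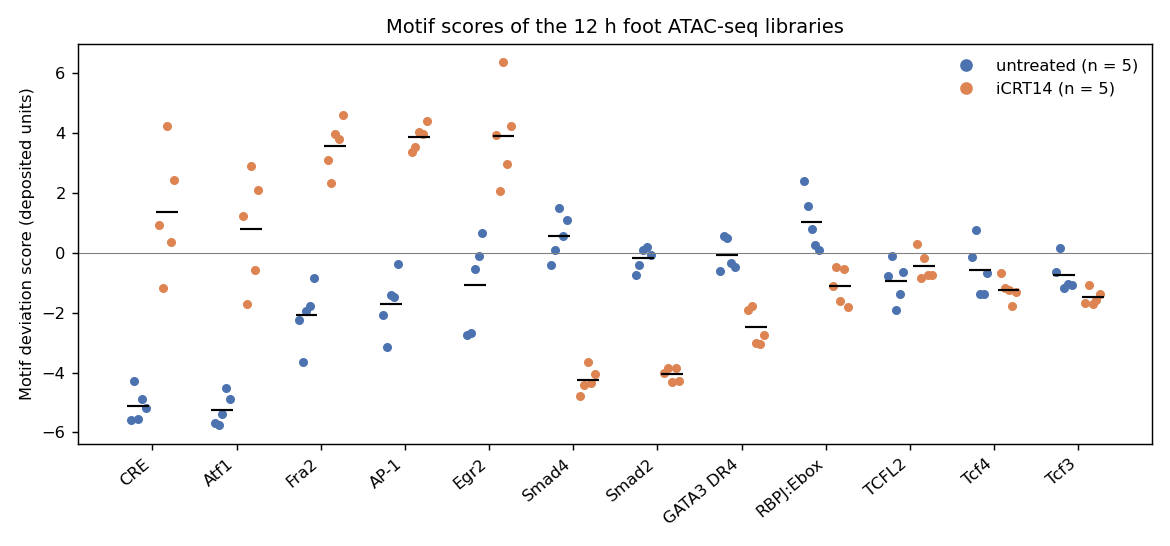
Deviation scores (vertical axis, deposited units) of 12 motifs in the 5 untreated (blue) and 5 iCRT14 (orange) ATAC-seq libraries of the 12 h foot; each point is a library and each bar a group mean. The bZIP and Egr2 motifs lay higher in iCRT14, the Smad, GATA3 and RBPJ:Ebox motifs lower, and the TCF/LEF motifs at the right overlapped between the groups.

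The TCF/LEF motifs, the pattern through which β-catenin acts and the target of the inhibitor, did not pass the test in the 12 h foot. TCFL2(HMG) scored -0.96 ± 0.70 untreated and -0.44 ± 0.49 treated (SD, n = 5 each), a difference of 0.52 with a 95% interval from -0.31 to 1.34 (limma, adjusted p = 0.333). Tcf4(HMG) differed by -0.67, with an interval from -1.72 to 0.38 (limma, adjusted p = 0.323), and Tcf3(HMG) by -0.73, with an interval from -1.61 to 0.15 (limma, adjusted p = 0.195). The libraries of the 2 groups overlapped for all 3 motifs. Earlier in the foot, TCFL2(HMG) and Tcf4(HMG) were higher in iCRT14 at 0 h, by 1.62 and 1.98 (limma, adjusted p = 0.0013 and 0.00217), and Tcf3(HMG) was lower at 8 h, with a difference of -1.41 (0.00817). None of the 3 passed at 3 h. In head tips at 12 h the same motifs were high untreated and fell in iCRT14. Tcf4(HMG) averaged 5.32 ± 1.69 (SD, n = 5) in untreated heads and 2.83 ± 1.02 (n = 4) in treated heads, a difference of -2.49 (limma, adjusted p = 0.000271). TCFL2(HMG) fell by 1.66 and Tcf3(HMG) by 1.72 in the head. The difference of the iCRT14 effect between foot and head was 2.18 for TCFL2(HMG) (limma, adjusted p = 0.0204), while it was 1.82 for Tcf4(HMG) (adjusted p = 0.156) and 0.99 for Tcf3(HMG) (adjusted p = 0.382), which did not pass.

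The motif families followed different courses over the hours before 12 h, as the plot of scores over time shows. Called motifs made up 52.4% of all motifs at 0 h (28.3% higher and 24.1% lower in iCRT14), 39.8% at 3 h (19% and 20.8%) and 52.7% at 8 h (30.4% and 22.3%). In untreated foot tips CRE(bZIP) rose from -8.17 ± 1.95 at 0 h (SD, n = 5) to 6.58 ± 0.88 at 3 h (n = 3), then stood at -7.06 ± 2.85 at 8 h (n = 5) and -5.10 ± 0.53 at 12 h. In iCRT14 the course was -3.13 ± 1.03 at 0 h (n = 4), 3.89 ± 2.29 at 3 h (n = 5), -0.81 ± 0.61 at 8 h (n = 4) and 1.36 ± 2.06 at 12 h. The treated foot thus lay above the untreated foot at 0, 8 and 12 h and not at 3 h. All 6 CRE type motifs were higher in iCRT14 at 0 and at 8 h, while none passed at 3 h, where their median difference was -1.74. Of the 14 AP-1 type motifs, 10 were lower in iCRT14 at 3 h and none was higher, and 9 were higher at 8 h. AP-1(bZIP) in iCRT14 went from -2.20 at 0 h to 0.90 at 3 h, 2.91 at 8 h and 3.86 at 12 h. In untreated tips it stood at -3.84 at 0 h, 2.55 at 3 h and -1.70 at 12 h. The 0 h tips of the iCRT14 group had been in the inhibitor for 2 h. Depth differed between the treatments, most at 3 h. Median counts in peaks of untreated and treated foot libraries were 25.5M and 15.8M at 0 h, and 36.4M and 10.7M at 3 h. They were 16.2M and 8.55M at 8 h, and 9.53M and 11.2M at 12 h. The part of depth in the differences at and between these times was not tested.

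The Smad difference was larger at 12 h than at 8 h. Smad4(MAD) stood at 3.84 ± 0.39 in untreated tips (SD, n = 5) and 4.11 ± 0.92 in treated tips (n = 4) at 0 h, and at -2.08 ± 1.49 (n = 3) and -2.84 ± 0.60 (n = 5) at 3 h. At 8 h it was -1.10 ± 0.74 untreated (n = 5) and -2.36 ± 0.91 treated (n = 4), a difference of -1.26 (limma, adjusted p = 0.0373). By 12 h it stood at 0.57 ± 0.77 in untreated tips and at -4.25 ± 0.43 in treated tips. Smad2(MAD) was already lower in iCRT14 at 0 h, at 2.42 ± 0.83 (SD, n = 4) against 4.28 ± 0.47 (n = 5), a difference of -1.86 (limma, adjusted p = 0.00123). It differed by -2.05 at 3 h (limma, adjusted p = 0.00193) and by -0.70 at 8 h (0.230). The iCRT14 effect at 12 h was more negative than at 8 h for all 4 Smad motifs: by -3.56 for Smad4(MAD) (limma, adjusted p = 0.000104), -3.18 for Smad2(MAD) (0.000228), -3.15 for Tbox:Smad(T-box,MAD) (4.99e-08) and -2.51 for Smad3(MAD) (0.00295). Tbox:Smad(T-box,MAD) had been higher in iCRT14 at 8 h, by 1.07.

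**Figure D2:**
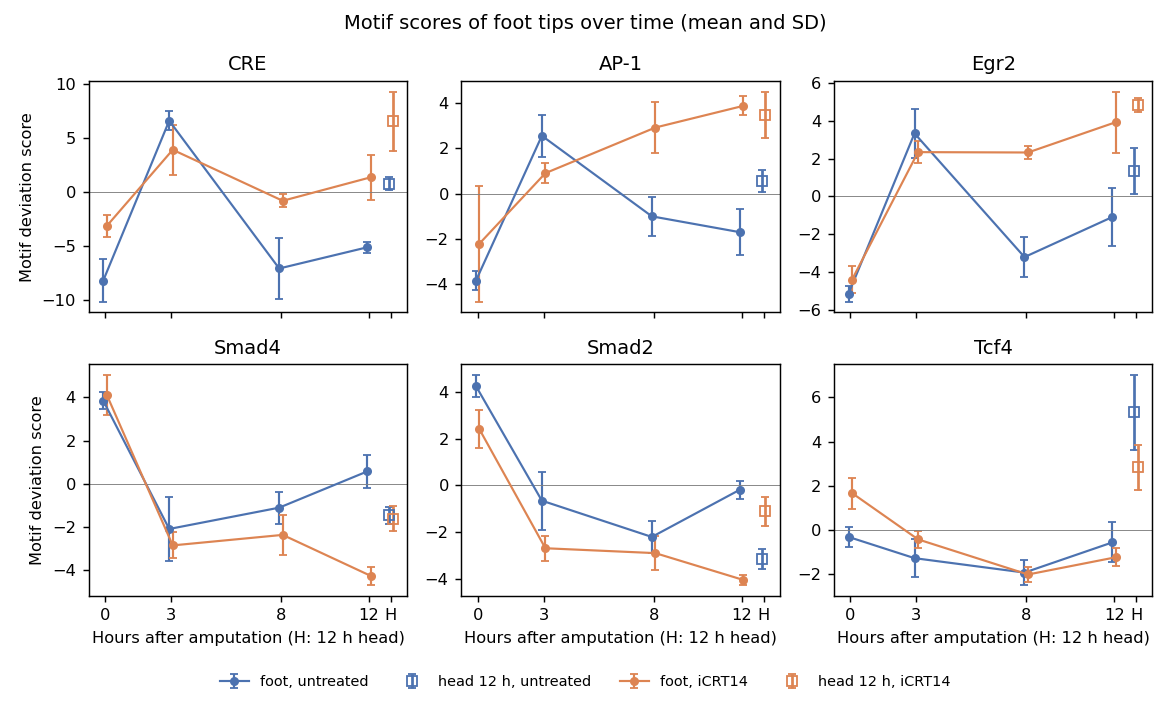
Deviation scores (vertical axes) of 6 motifs against hours after amputation in untreated (blue) and iCRT14 (orange) foot tips, as mean and SD of 3 to 5 libraries; open squares at H are the 12 h head groups. CRE, AP-1 and Egr2 lay higher in iCRT14 at 8 and 12 h, Smad4 and Smad2 lay furthest apart at 12 h, and Tcf4 at 12 h was lower in both foot groups than in both head groups.

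Over all motifs, 92 (27.7%) had an iCRT14 effect in the foot that differed between 12 and 8 h. The largest gain was in NFY(CCAAT), a motif of the CCAAT box, whose effect was 1.27 at 12 h (limma, adjusted p = 0.0856) and -4.19 at 8 h, a difference of 5.45 (limma, adjusted p = 1.15e-06). ZNF317(Zf) rose by 1.52 at 12 h and was lower in iCRT14 at 8 h, a difference of 3.69. Elk1(ETS), named for an ETS factor of the MAP kinase pathway, went the other way: it was 6.10 higher in iCRT14 at 8 h, and at 12 h the difference was 1.17 (limma, adjusted p = 0.152). At 8 h 17 of 18 ETS motifs were higher in iCRT14, beside 30.4% of all motifs. At 12 h 1 was higher and 1 lower, beside 20.2% and 15.1% of all motifs, and none was higher with centred scores. ZNF41(Zf) was 4.96 higher at 8 h, and at 12 h the difference was 0.53 (limma, adjusted p = 0.339).

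Foot and head shared much of the motif response and parted in the Smad motifs. Of the 117 motifs called in the foot, 62 were also called in the head (53.0% of the foot calls, and 48.8% of the 127 head calls, which were 38.3% of all motifs), 60 of them in the same direction. The CRE type motifs rose by a median of 4.33 in the foot and 4.96 in the head, and the difference between the sides passed for none of the 6. Their levels were not alike, since CRE(bZIP) averaged 1.36 in treated foot tips and 6.53 ± 2.73 (SD, n = 4) in treated head tips. AP-1(bZIP) rose by 2.64 more in the foot than in the head (limma, adjusted p = 0.0472), to a similar treated level of 3.86 against 3.47. Of the 14 AP-1 type motifs it was the only 1 whose difference between sides passed. Fra2(bZIP) differed by 1.51 and Jun-AP1(bZIP) by 1.67 (limma, adjusted p = 0.374 and 0.302). The AP-1(bZIP) difference was not followed through the alternatives.

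The effect differed between foot and head for 27 motifs (8.13%), of which 14 (4.22%) were more positive in the foot and 13 (3.92%) more negative. With centred scores the split was 9 and 17. The 4 Smad motifs were among the 27. Smad2(MAD) fell by 3.88 in the foot and rose by 2.05 in the head, a difference of -5.93 ± 0.68 (SE; limma, adjusted p = 9.28e-10). Its score was -4.06 in treated foot tips, -3.17 ± 0.42 (SD, n = 5) in untreated heads, -1.12 ± 0.62 (n = 4) in treated heads and -0.18 in untreated foot tips. Smad4(MAD) fell in the foot and differed by -0.16 in the head (limma, adjusted p = 0.823), a difference between sides of -4.66 (limma, adjusted p = 2.93e-06). The largest differences in the other direction were in PAX3:FKHR-fusion(Paired,Homeobox), which rose by 2.19 in the foot and fell by 1.33 in the head, and in NFY(CCAAT), at 2.82 (limma, adjusted p = 0.0273). The NFY(CCAAT) call was lost without untreated foot replicate 3, 4 or 5 (adjusted p = 0.0724, 0.0654 and 0.0598) or iCRT14 foot replicate 2 (0.0820). With a replicate block the count of 27 was 48. It was 15 without untreated foot replicate 3, 16 without untreated foot replicate 5 and 15 without iCRT14 foot replicate 2.

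**Figure D3:**
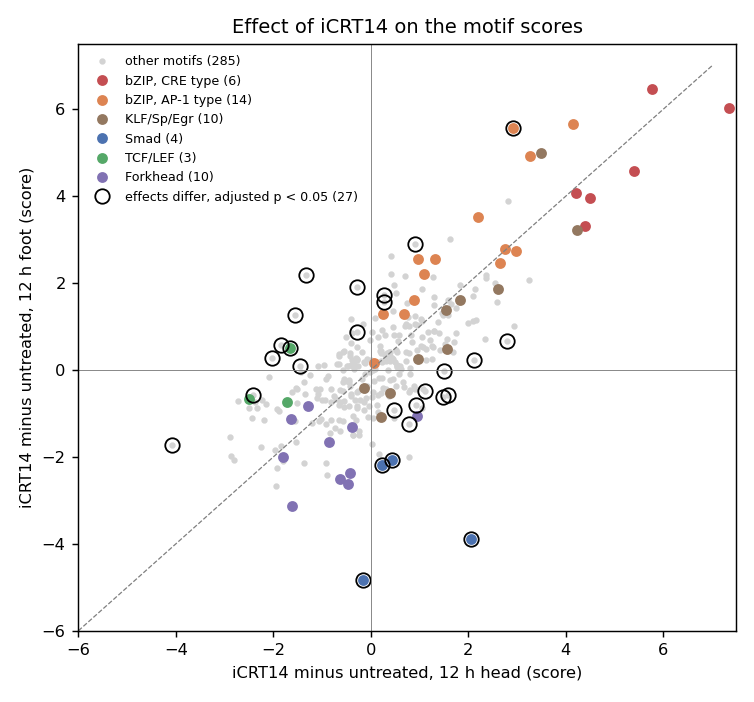
Difference in score between iCRT14 and untreated tips at 12 h for 332 motifs, in the head (horizontal axis) and in the foot (vertical axis), with 6 families in colour; black rings mark the 27 motifs whose effect differed between the sides, and the dashed line marks equal effects. The CRE type motifs lie at the upper right, the AP-1 type motifs spread from there toward the centre, and the Smad motifs lie below the line.

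The peaks and gene models that changed were described next by lists drawn from other libraries: untreated tips at 0, 3 and 8 h. Of 7194 peaks that gained accessibility in the untreated foot from 0 to 3 h, 1008 were more accessible in iCRT14 at 12 h and 71 less, with a median log2 fold change of 0.19 against -0.01 over all peaks. These shares were 14.0% and 0.987%, beside 2.22% and 2.06% of all peaks. Of the 9153 peaks that lost accessibility over the same hours, 131 were higher and 1008 lower, with a median of -0.12. Peaks that opened early after the cut were thus more often higher than lower in treated tips at 12 h, and peaks that closed early more often lower.

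Peaks that differed between the sides at 8 h split by their early behaviour. Of 2592 peaks higher in the head than in the foot at 8 h, 683 had also risen in the foot from 0 to 3 h. Of these 683, 145 (21.2%) were higher in iCRT14 and 26 (3.81%) lower, beside 2.22% and 2.06% of all peaks. Their median log2 fold change was 0.26. Of the remaining 1909, 34 (1.78%) were higher and 430 (22.5%) lower, with a median of -0.24. The median log2 CPM (counts scaled by library size) of the 1909 peaks was 3.09, 3.12, 3.25, 3.24 and 3.22 in the untreated foot libraries and 2.86, 2.82, 2.96, 2.89 and 3.00 in the treated ones. All 5 treated libraries lay below all 5 untreated libraries. In the head, 264 of the same 1909 peaks were higher in iCRT14 and 187 lower, beside 3.18% and 2.4% of all peaks there. Of 1024 peaks higher in the foot at 8 h, 22 (2.15%) were higher in iCRT14 and 190 (18.6%) lower in the 12 h foot, with a median of -0.24. The split of the head-high features was made after their values had been seen.

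In RNA the split was wider. Of 263 gene models higher in the head at 8 h that had also risen in the foot from 0 to 3 h, 194 rose in iCRT14 in the 12 h foot and 1 fell, with a median log2 fold change of 1.25 against -0.02 over all gene models. Their median log2 CPM was 3.89, 4.13 and 3.77 in the untreated foot libraries, and 5.48, 5.63 and 5.61 in the treated ones. Every treated foot library also stood above the untreated head libraries, which ran from 4.60 to 4.87, and close to the treated head libraries, from 5.52 to 5.93. In the head 153 of the 263 rose and 13 fell, with a median of 0.79, beside 4.15% of all gene models that rose there and 4.55% that fell. Of the 355 tested head-high gene models that had not risen early, 37 rose (10.4%) and 46 fell (12.96%) in the foot, beside 6.47% and 5.53% of all gene models, with a median of -0.10, and in the head 23 rose and 91 fell, with a median of -0.33. Of the 1426 tested gene models that rose early and were not head-high, 404 rose and 49 fell, with a median of 0.30. Of 622 gene models higher in the foot at 8 h, 22 rose and 170 fell, with a median of -0.36, and in the head 20 rose and 120 fell.

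**Figure D4:**
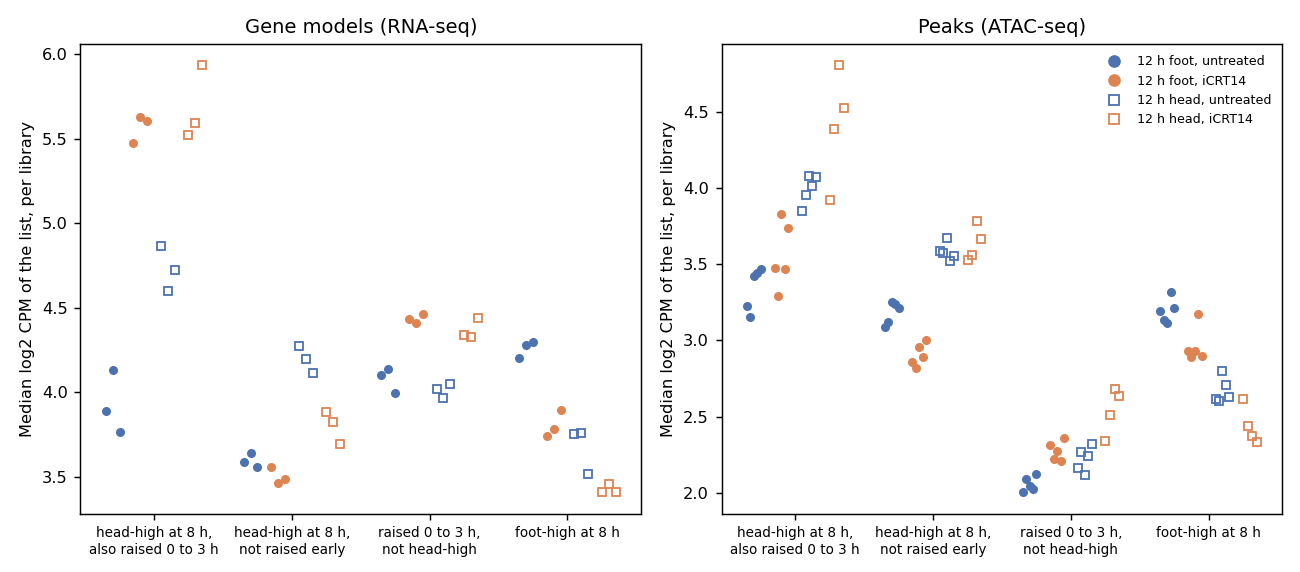
Median log2 CPM (vertical axis) over the members of 4 lists in each 12 h library, for gene models (left) and peaks (right); filled circles are foot and open squares head tips, blue untreated and orange iCRT14. The 263 gene models that were head-high at 8 h and raised early stand at 5.48 to 5.63 in the treated foot and at 3.77 to 4.13 in the untreated foot.

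Among all changed features the sizes were moderate. Gene models that rose had a median log2 fold change of 0.94 and those that fell -0.77, and 596 and 360 of them changed more than 2-fold. Peaks that rose had a median of 0.78 and those that fell -0.77, with 687 and 595 past 2-fold. Changed peaks lay near each other: 26.8% of the peaks that rose had another that rose within 10000 bases, beside 6.77% of all tested peaks, and 25.1% of those that fell had another that fell, beside 6.25%. All tested peaks were weaker, with a median of 3.79 CPM against 8.69 for peaks that rose and 8.04 for those that fell. They were also narrower, at 595.5 bases against 698 and 650. The part of strength and width in this nearness was not tested. The stretches with the most changed peaks were then picked from windows of 100000 bases, after the values had been seen. In 1 such window on scaffold Sc4wPfr_246, 14 of the 27 peaks tested rose and 1 fell. The 14 lay between 881731 and 957383, with a median log2 fold change of 1.22. In a window on scaffold Sc4wPfr_399, 8 of the 16 peaks tested fell and 1 rose, and the 8 lay between 87189 and 119342. Positions are those of the deposited intervals.

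Of the peaks that rose the most, peak 17860 was the strongest signal. It lies on scaffold Sc4wPfr_14 from 2268451 to 2269179. Its accessibility was 3.80, 5.48, 4.55, 4.79 and 7.08 CPM in untreated foot libraries and 43.2, 43.1, 72.5, 54.1 and 59.8 CPM in treated ones. The groups were far apart, with a log2 fold change of 3.42 ± 0.22 (SE; edgeR, adjusted p = 1.60e-21). In the head it rose from 20.7 ± 4.10 (SD, n = 5) to 58.9 ± 11.9 CPM (n = 4), so that both sides reached a similar treated level. The effect was larger in the foot by 1.93 on the log2 scale (edgeR, adjusted p = 9.81e-06), and it was already present in the foot at 0, 3 and 8 h, at 1.46, 1.64 and 2.05. Peak 77879 on scaffold Sc4wPfr_488 (862962 to 863906) rose from 0.40 ± 0.23 to 2.88 ± 0.66 CPM (SD, n = 5 each), a log2 fold change of 2.93 (edgeR, adjusted p = 4.50e-06), and also rose at 3 h and 8 h.

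The other peaks of the largest rises were short or weak and had the opposite effect at 0 h. Peak 57360 (scaffold Sc4wPfr_338.1, 666718 to 666865) measured 1.36 ± 0.77 CPM untreated and 15.1 ± 9.72 treated (SD, n = 5 each), a log2 fold change of 3.58 (edgeR, adjusted p = 8.87e-11). At 0 h it was 13.6 ± 6.69 CPM untreated (n = 5) and 1.01 ± 0.46 treated (n = 4). Peak 76931 (scaffold Sc4wPfr_483, 593301 to 593448) rose by 3.40 and peak 69947 (scaffold Sc4wPfr_421.1, 174790 to 175218) by 2.99 on the log2 scale at 12 h, and at 0 h they fell by 4.90 and by 3.36. Their lower groups were near the smallest deposited count of 1, so that these sizes depend on that floor. Untreated libraries at 12 h held 1 to 4 and 1 to 6 counts, and treated libraries at 0 h 1 to 2 and 1 to 4. Peak 89709 (scaffold Sc4wPfr_6.1, 1152714 to 1152875) rose by 3.70 at 12 h and fell by 2.82 at 8 h and by 4.41 at 0 h. It had the largest difference between 12 and 8 h among peaks with at least 10 counts in every library of at least 1 compared group.

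Of the 5 peaks that fell the most, 4 had an effect in the foot that differed from that in the head. Peak 58095 (scaffold Sc4wPfr_347, 1117330 to 1118094) measured 12.8, 10.7, 29.3, 19.6 and 21.7 CPM in untreated foot libraries and 3.77, 2.19, 1.85, 3.17 and 4.15 CPM in treated ones, a log2 fold change of -2.63 ± 0.27 (SE; edgeR, adjusted p = 6.10e-12). Treated foot tips, at 3.02 CPM, thus stood below head tips, at 5.18 ± 1.74 untreated (SD, n = 5) and 4.59 ± 1.28 treated (n = 4). Peak 12192 (scaffold Sc4wPfr_1241, 384505 to 384893) fell from 8.78 ± 1.82 to 1.75 ± 0.86 CPM (SD, n = 5 each), a log2 fold change of -2.33, with 5.90 and 5.57 CPM in untreated and treated heads. Peak 105950 (scaffold Sc4wPfr_828.1, 337502 to 337701) fell by 2.72 and peak 6 (scaffold Sc4wPfr_1, 40404 to 40880) by 2.35 on the log2 scale. The effect differed between foot and head for these 4, by -2.47, -2.26, -2.63 and -2.15 (edgeR, adjusted p from 1.43e-06 to 0.00803). Peak 24246 (scaffold Sc4wPfr_166.1, 14242 to 14599) fell by 2.48 in the foot, and its difference between sides of -1.54 did not pass (edgeR, adjusted p = 0.476).

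Across all peaks, 1723 of those called in the foot were also called in the head (37.0% of the foot calls and 28.4% of the 6074 head calls, which were 5.58% of all peaks, 3.18% higher and 2.4% lower). Of these, 1633 had the same direction. The peaks that rose in the foot had a median log2 fold change of 0.56 in the head, and 1172 of the 2418 also rose there. The peaks that fell had a median of -0.25 in the head, where 461 of the 2241 also fell and 86 rose. The effect differed between the sides at 787 peaks (0.722%), of which 442 were called in the foot and 407 in the head. Fitted effects had opposite signs at 628 of the 787, counted whether or not they passed. A test of the difference favours such peaks, so that the count is no measure of reversals. The effect was more positive in the foot at 219 (0.201%) and more negative at 568 (0.521%). The peaks ranked next are those with at least 10 counts in every library of at least 1 compared group. The 2 most negative were peak 91731 (scaffold Sc4wPfr_628, 998973 to 999149), which fell from 8.44 to 2.10 CPM in the foot and rose from 6.31 to 13.5 CPM in the head, and peak 26137 (scaffold Sc4wPfr_1729, 107099 to 107338), which measured 1.85 and 1.19 CPM in the foot and rose from 3.00 to 16.2 CPM in the head. The 2 most positive, peaks 6523 (scaffold Sc4wPfr_1107.1, 536002 to 536203) and 58215 (scaffold Sc4wPfr_347, 1809479 to 1809690), did not pass in the foot and fell in the head by 2.41 and by 1.77 on the log2 scale. The call for peak 58215 was lost without iCRT14 foot replicate 1 (edgeR, adjusted p = 0.0548).

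Between 12 and 8 h the foot effect differed at 5158 peaks (4.73%), of which 895 were called at 12 h and 4052 at 8 h. The fitted signs were opposite at 3809 of the 5158, again counted whether or not the effects passed. Of the 4659 peaks called at 12 h, 2305 were also called at 8 h (49.5% of the 12 h calls and 11.7% of the 19681 calls at 8 h, which were 18.1% of all peaks, 8.4% higher and 9.67% lower), and 2157 of these had the same direction. At 3 h, where 17.3% of all peaks were called (5.47% higher and 11.8% lower), 1798 were shared, 1302 of them in the same direction. Of the peaks that rose at 12 h, 213 were higher and 462 lower in iCRT14 at 3 h, and of those that fell at 12 h, 1089 were lower and 34 higher. At 0 h, where 19.4% were called (8.61% higher and 10.8% lower), 1740 were shared, 1458 of them in the same direction. Depth differed more between the treatments at 0, 3 and 8 h than at 12 h, and its part in these counts was not tested. The peaks ranked next are those with at least 10 counts in every library of at least 1 compared group. The 2 largest losses were at peaks 62902 (scaffold Sc4wPfr_377, 255113 to 255427) and 68871 (scaffold Sc4wPfr_4165, 17388 to 17959), which were 3.45 and 3.48 higher in iCRT14 at 8 h on the log2 scale and did not pass at 12 h, where the fitted values were -0.59 and -0.45 (edgeR, adjusted p = 0.686 and 0.792). In these 2 peaks replicates 1 and 2 lay below the other replicates in every 12 h group. Within replicates 1 and 2 the 12 h difference was 1.35 and 2.21, and within replicates 3 to 5 it was -0.83 and -0.84, so that no 12 h direction is given.

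Among gene models, 1170 of those called in the foot were also called in the head (48.8% of the foot calls and 67.3% of the 1739 head calls, which were 8.70% of all gene models), and 1162 of these had the same direction. The effect differed between the sides for 41 gene models (0.205%), with 35 (0.175%) more positive and 6 (0.03%) more negative in the foot. The count was 26 without iCRT14 foot replicate 2. It depended strongly on the fit, at 21 with only the compared groups, 83 with DESeq2 and 130 with all RNA libraries.

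Among gene models with at least 10 counts in every library of at least 1 compared group, g24952 showed the largest such difference upward. It measured 8.34, 6.25 and 5.38 CPM in untreated foot libraries and 16.5, 28.9 and 32.5 CPM in treated ones, and 67.3, 52.1 and 54.9 CPM in untreated heads and 23.7, 27.1 and 28.6 CPM in treated heads. Untreated foot and head libraries were far apart, and treated foot and head libraries overlapped. It rose by 1.97 ± 0.28 in the foot and fell by 1.13 in the head on the log2 scale (SE; difference 3.10, edgeR, adjusted p = 0.000109). Gene model g33373 was high in untreated heads, at 45.4 ± 4.64 CPM (SD, n = 3), fell there to 9.30 ± 1.23 CPM, and stood at 0.65 and 1.13 CPM in untreated and treated foot tips. Its difference between sides of 2.96 (edgeR, adjusted p = 0.0246) no longer passed without iCRT14 foot replicate 1 (0.195) or without untreated foot replicate 1, 2 or 3 (0.0770, 0.0786 and 0.0879). Both gene models had been higher in the head at 8 h.

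Gene model g12342, which had risen in the untreated foot from 0 to 3 h, rose from 1.19, 0.64 and 0.95 CPM to 8.40, 6.69 and 7.32 CPM in the foot, a log2 fold change of 3.00 ± 0.36 (SE; edgeR, adjusted p = 3.28e-06). In the head it had 0, 2 and 0 counts untreated and 4.27 to 8.89 CPM treated, and the effects differed between the sides (edgeR, adjusted p = 0.00834). That call was lost with only the compared groups in the fit (0.0666). Gene model g2198 had 71, 63 and 31 counts in untreated foot libraries and 0 in all 3 treated ones, at least 18.7-fold lower against a floor of 3 counts per library (edgeR, adjusted p = 1.14e-06). In the head it measured 1.57 ± 0.18 CPM untreated and 0.82 ± 0.40 CPM treated (SD, n = 3 each). Gene model g25854 fell from 2.44, 4.74 and 1.65 CPM to 0.30, 0.39 and 0.19 CPM, a log2 fold change of -3.30 ± 0.59 (SE; edgeR, adjusted p = 0.000444), and it had been higher in the foot at 8 h.

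The largest rises among gene models were from almost no signal. Gene model g879 had no count in the untreated foot libraries and 21, 31 and 39 counts in the treated ones, at least 9.30-fold higher against the same floor (edgeR, adjusted p = 0.000294). Gene model g8232 had 0, 2 and 0 counts untreated and 29, 39 and 49 treated (edgeR, adjusted p = 1.41e-05). In the head g8232 rose as well, from 0.23 ± 0.04 to 3.11 ± 1.16 CPM (SD, n = 3 each).

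**Figure D5:**
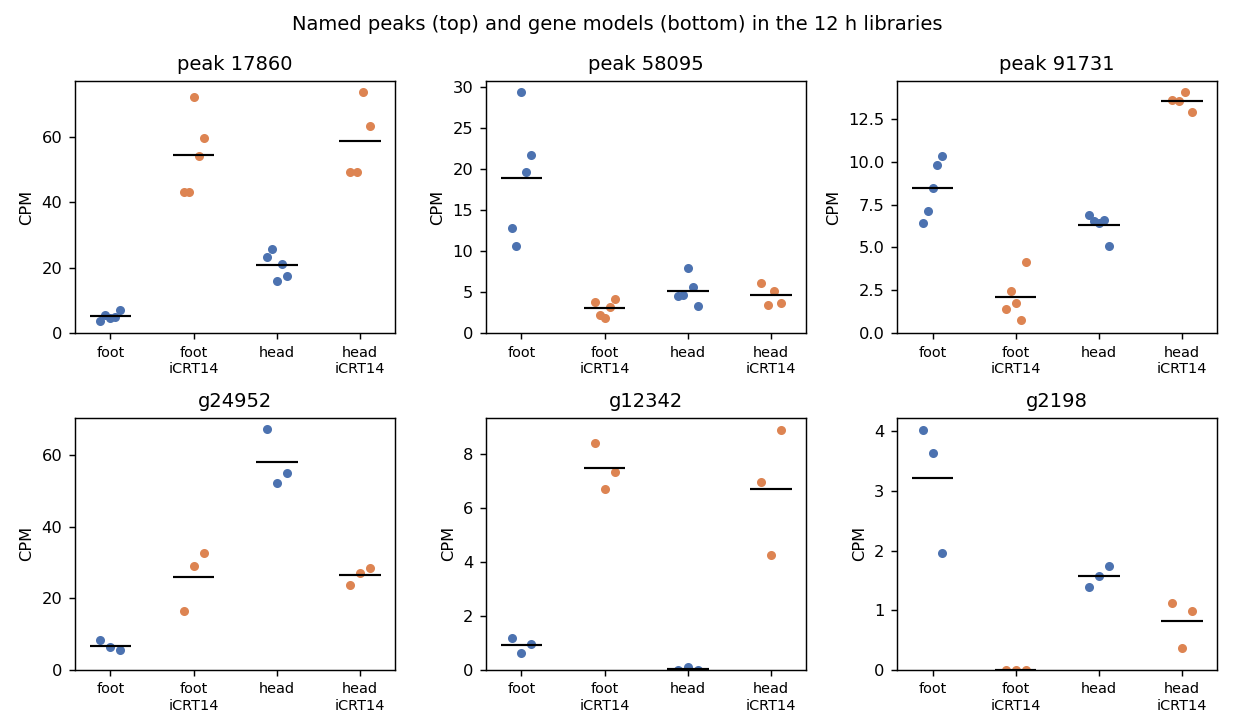
Accessibility of 3 peaks (top) and expression of 3 gene models (bottom) in CPM (vertical axes) in the 12 h libraries by side and treatment; each point is a library and each bar a group mean. Peak 17860 and g24952 reach similar levels in both sides under iCRT14, peaks 58095 and 91731 fall in the foot, and g2198 is at 0 counts in the 3 treated foot libraries.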

How the data were processed

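RNA-seq was given as estimated counts per gene model for 33820 gene models, as the authors deposited them, and 24.8% of the values were not whole. Per the submitters' processing notes, the RNA tools were Trimmomatic 0.36, RSEM 1.2.31 and Bowtie2, and the ATAC tools Trimmomatic 0.36, Bowtie2 2.2.6, Picard 2.17.8, SAMtools 1.2, deepTools 3.3.1 and DiffBind. ATAC-seq was given as deposited whole-number counts in 115968 peaks. The smallest deposited count was 1, and 3.94% of the values were 1. The third file held deposited deviation scores for 332 motifs, a score with no stated scale. The genome build and the base from which peak positions count are not given in the sources used here. Interval positions, which do not bear on the tests, are printed as deposited. No column was left unused, and 0 gene IDs matched the RefSeq table.

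Estimated counts were rounded. Counts were tested with edgeR 4.0.16 (R 4.3.3) quasi-likelihood fits after filterByExpr and TMM scaling, over the 24 RNA libraries of the KAPA kit, which include all 12 h libraries, and over all 71 ATAC libraries. The 18 RNA libraries of the other kit were fitted apart and gave the RNA lists of 0, 3 and 8 h. Scores were tested with limma 3.58.1. P-values were two-sided and adjusted by Benjamini-Hochberg over all features, with calls below 0.05. Replicates are separate samples in the labels, which do not say that they came from separate cultures. The p-values thus set each difference against the spread between such samples, estimated over all groups of a fit. No 2 replicates of the 12 h foot were alike within counting noise. CPM are counts scaled to the TMM library size.

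Gene models and peaks were named by fold among calls with groups that do not overlap and at least 10 counts in every library of the higher group (2 gene models and 5 peaks in each direction), and motifs by difference (10 in each direction, with all TCF/LEF motifs). For differences between sides or times, 2 of each sign were named. Gene models and peaks were ranked there among calls with at least 10 counts in every library of at least 1 compared group. The members, lists and rules were chosen with earlier results of these data known. Simulated data with known changes were used to check the fits: of 50 genes changed 4-fold in the RNA fit 44 were recovered, and of 50 such peaks 49. These changes were placed only in features above a minimum mean count, so that recovery in weaker features was not measured. Alternatives covered DESeq2 1.42.0, other scalings and filters, fewer groups, a replicate block and leaving out single libraries.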

Additional observations from a re-analysis of the deposited data

Results flagged for a closer look

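The iCRT14 effect at 12 h differed between foot and head for named features in all 3 readouts, each by the test of that difference (foot effect minus head effect, adjusted p below 0.05). Among gene models the difference in log2 fold change was -8.16 for g2198, 3.10 for g24952, 2.96 for g33373 and -4.42 for g12342. Those of g2198 and g12342 rest on groups with libraries at 0 counts, and their size depends on the fit. Among peaks it was 1.93 for peak 17860, -2.63 for peak 105950, -2.47 for peak 58095, -2.15 for peak 6, -2.26 for peak 12192, 2.76 for peak 6523, 2.40 for peak 58215, -3.10 for peak 91731 and -3.08 for peak 26137. Among motifs the difference in score was 2.64 for AP-1(bZIP), -4.66 for Smad4(MAD), -5.93 for Smad2(MAD), -2.43 for Smad3(MAD), -2.52 for Tbox:Smad(T-box,MAD), 2.18 for TCFL2(HMG), 3.52 for PAX3:FKHR-fusion(Paired,Homeobox) and 2.82 for NFY(CCAAT).

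The foot effect differed between 12 and 8 h (12 h effect minus 8 h effect) for peaks and motifs, tested in the same way. Depth differed between the treatments more at 8 h than at 12 h, and its part was not tested. The difference in log2 fold change was 5.63 for peak 57360, 1.37 for peak 17860, 5.17 for peak 76931, 3.62 for peak 69947, -2.86 for peak 105950, -2.33 for peak 58095, -2.01 for peak 6, -1.30 for peak 12192, -2.30 for peak 91731, -1.95 for peak 26137, 6.52 for peak 89709, -4.04 for peak 62902 and -3.94 for peak 68871. The difference in score was -3.56 for Smad4(MAD), -3.18 for Smad2(MAD), -1.64 for Unknown-ESC-element(?), -2.76 for Phox2a(Homeobox), -2.51 for Smad3(MAD), 2.31 for p53(p53) [mES], -3.15 for Tbox:Smad(T-box,MAD), 5.45 for NFY(CCAAT), 3.69 for ZNF317(Zf), -4.93 for Elk1(ETS) and -4.44 for ZNF41(Zf).

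In peak 69947 iCRT14 foot replicate 4, at 4.00 CPM, stood apart from the other treated libraries, which ran from 0.949 to 1.74 CPM. It was 1 of 66 groups tested for such a library, and chance sets apart about 1 in 20.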

How the results depend on the processing

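No named feature reversed its direction, in the comparison it was named for, under the alternatives run. The balance of calls did turn. For peaks of the foot, 1856 rose and 2086 fell without untreated replicate 1, and 1910 and 2141 without untreated replicate 2. Without iCRT14 replicate 5, 1762 rose and 1880 fell. With all RNA libraries in the fit, 4148 gene models were called in the foot and 130 differed between the sides. The side count was 21 with only the compared groups, 83 with DESeq2 and 14 with a replicate block, and for peaks 1271 with only the compared groups and 1823 with the block. The block gave 7522 peaks in the foot and 48 motifs that differed between the sides, and 2378 gene models and 143 motifs in the foot. With the same groups and no block, 6841 peaks, 1891 gene models and 128 motifs were called in the foot. Groups were taken as paired only where every correlation between same-numbered replicates passed a fixed minimum. By this rule replicate numbers did not pair the 12 h foot groups (correlation of same-numbered deviations from -0.044 to 0.092 in RNA, from -0.009 to 0.089 in ATAC and from 0.007 to 0.415 in scores). The correlations of the foot scores were all positive, and a weaker sharing by replicate number was not tested. In scores, untreated foot and head did pair by the same rule (0.197 to 0.543) and treated foot and head did not (-0.246 to 0.642), so that the pairing bears on part of the motif difference between sides. Each sample matched its own number best in 1 of 3 RNA, 0 of 5 ATAC and 2 of 5 score pairs of the foot.

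Leaving out 1 library gave 1515 to 2068 gene models in the foot and 26 to 32 between sides, and 15 to 27 motifs between sides. The difference between sides of g2198 was lost with the block (edgeR, adjusted p = 0.0772), and that of g12342 with only the compared groups (0.0666) and with the block (0.142). That of g33373 was lost under the same alternatives (0.0809 and 0.146). Named peaks kept their calls under every alternative other than leaving out a library. The cause of these shifts was not tested. With 3 RNA libraries a group, the simulated 2-fold changes were recovered in 54% of cases, among gene models above a minimum mean count. Smaller changes, and changes in weaker gene models, can thus be missed.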

Other observations

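In the 12 h ATAC libraries, replicates 1 and 2 lay below the other replicates in all 4 groups at 642 peaks and above them at 66, and 67 of these peaks were among the 4659 called. The labels name no batch. The part of this division, which was noticed after seeing the data, in the calls was not tested.

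Peak 57360 varied over the 71 ATAC libraries most like peak 76931 (Pearson r of log2 CPM 0.939), and with r of 0.896 for peak 89709 and 0.785 for peak 69947. These lie on separate scaffolds.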
